A study of Mus musculus with 6 samples.

Results

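Immediate early genes are the genes that neurons and other cells switch on first after a stimulus. A set of 39 genes, made up of immediate early genes, related factors and delayed targets, was followed in the mouse hippocampus after stroke. The members were taken by gene symbol: 8 AP-1 and small Maf factors, 4 EGR factors, 3 NR4A receptors, 7 KLF and other transcription factors, 5 dual-specificity phosphatases, 6 immediate early response and feedback genes, and 6 synaptic and delayed activity targets. All 39 symbols were found among the 55471 genes of the authors' deposited table, and 38 of them are among the 18603 genes with an adjusted p (Fosl1, with a mean of 3.74 normalised counts, is not). RNA was taken from wild-type (WT) mice 24 hours after cerebral ischemia reperfusion, a stroke model that interrupts the brain's blood supply and then lets it return. In 3 samples the animals had Visudyne, a preparation of the light-activated drug verteporfin with which the series removes meningeal lymphatic vessels, and in 3 samples they had saline. All 6 samples therefore carry the ischemic injury, and none is from an uninjured brain. Whether the samples come from separate animals is not in the labels, so each p-value reflects only how these libraries vary, and that variation may be technical.

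The deposited table gives no column per sample and does not state which treatment is on top of its fold change. Each direction below is the sign found there: the positive side is the group on top of the ratio and the negative side the group under it. The table prints each gene's mean over the 6 libraries to 15 digits, and this mean is a sum of whole read counts, each multiplied by a fixed step for its library. The sets of whole counts that give the printed mean, the p-value and the error were searched for each gene. Exactly 1 set was accepted for 34 of the 39 members; Jun, Egr1, Arc, Homer1 and Plk2 have no values per library here. The libraries are called P1, P2 and P3 on the positive side and N1, N2 and N3 on the negative side. Neither a side nor a library can be tied to a treatment or to a sample name. Their size factors, which measure relative depth, were 1.20, 1.06 and 0.584 in P1, P2 and P3, against 1.52, 1.22 and 0.754 in N1, N2 and N3. A normalised count below is a read count divided by the size factor of its library.

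In a resting neuron the classic immediate early genes such as Fos and Npas4 are nearly silent, with CREB, serum response factor and MEF2 already at their promoters or enhancers. Calcium entry through synaptic receptors and channels activates kinases that act on these factors, so that Fos, Egr1, Npas4, Nr4a1 and Arc are transcribed without new protein synthesis. The proteins made, mostly transcription factors, then act on slower genes of synapses and growth, while phosphatases such as those of the DUSP family and repressors turn the signal off. In the hippocampus this programme is best known from learning and seizures, and ischemia also induces it.

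None of the 38 tested members has an adjusted p under 0.05 in the DESeq2 results of the authors' deposited table, where 0.328% of all tested genes do, and none has an adjusted p under 0.1, where 0.624% do. The refit to the whole counts of 33 members called 0 as well. At an unadjusted p under 0.05 in the authors' deposited table there are 7 members, 2 with a positive fold change (Maff and Klf6) and 5 with a negative one (Nr4a3, Dusp5, Ptgs2, Dusp6 and Gem). The share among all tested genes in the authors' deposited table is 6.81%, of which 3.92% are positive and 2.89% negative. By sign alone, 13 members were positive and 25 negative, while 50.5% of all tested genes were positive and 49.5% negative. The unshrunken log2 fold change had a median of -0.22 over the 38 members, with a range from -1.14 for Arc to 1.33 for Maff, beside a median of 0.00 over all tested genes. The authors' own fold changes are drawn strongly toward 0, to a median of -0.0019 over the members, so unshrunken values were back-calculated and are given below with their standard error (SE).

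**Figure D1:**
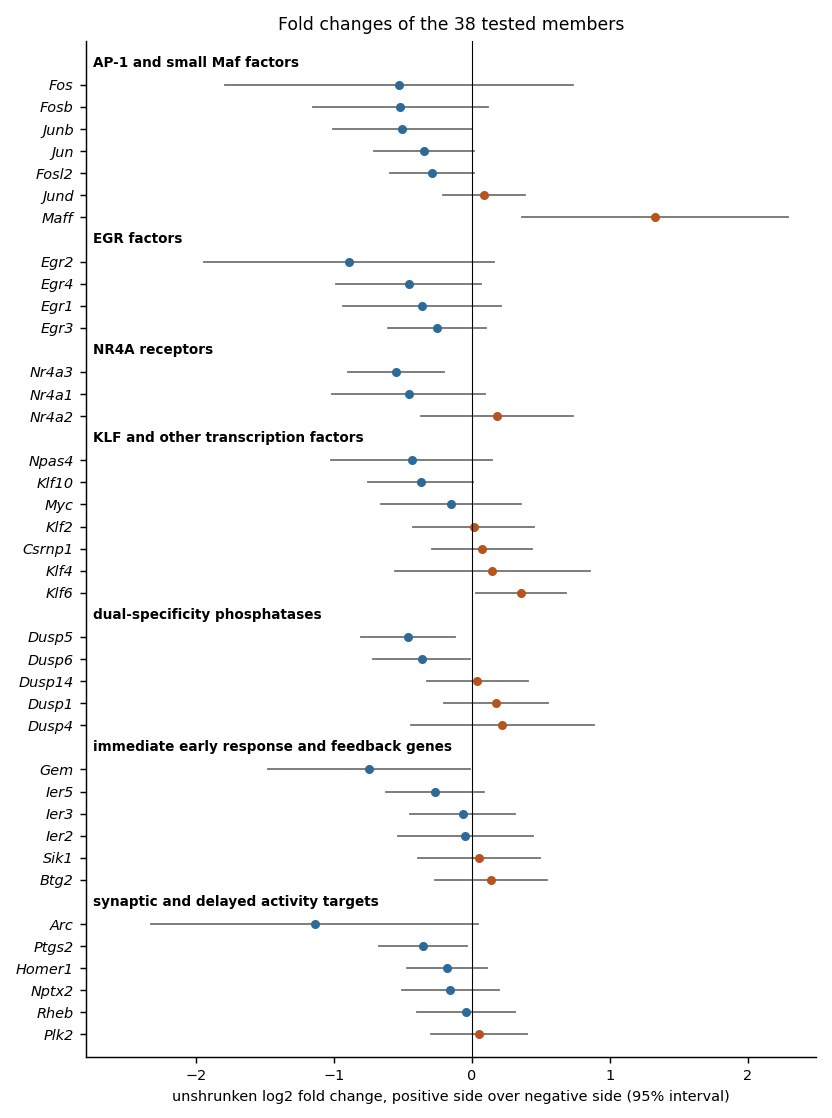
Unshrunken log2 fold change of each of the 38 tested members (x axis, positive side over negative side), grouped by role; points are back-calculated values and lines their 95% intervals. The intervals of 7 members exclude 0, Maff and Klf6 on the positive side of the axis and Nr4a3, Dusp5, Dusp6, Gem and Ptgs2 on the negative side.

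The AP-1 factors are dimers of a FOS and a JUN protein, and 5 of the 7 tested members of this role had negative fold changes. Junb, which dampens the activity of JUN, had 2112, 1038 and 1597 normalised counts in P1, P2 and P3, against 2244, 1703 and 2762 in N1, N2 and N3. The sides overlap, because P1 lies above N2, and the log2 fold change was -0.51 ± 0.26 (SE; p = 0.0501 and adjusted p = 0.734 in the authors' deposited table). Fos, the most widely used marker of neuronal activity, had 583, 136 and 253 normalised counts in P1, P2 and P3, against 329, 459 and 613 in N1, N2 and N3. P1 is the second highest of the 6 libraries and P2 the lowest by far, a 4.49-fold range, so the sides overlap. The log2 fold change of Fos was -0.53 ± 0.64 (SE; p = 0.409 and adjusted p = 0.968 in the authors' deposited table). Fosb, whose long-lived splice product builds up under repeated activity, had 206, 125 and 127 normalised counts in P1, P2 and P3, against 163, 168 and 329 in N1, N2 and N3. In Fosb only N3 stands clear of the other libraries. Fosl2, another partner of the JUN proteins, had 805, 765 and 791 normalised counts in P1, P2 and P3, against 906, 867 and 1118 in N1, N2 and N3, so that its sides do not overlap (-0.29 ± 0.16, SE; p = 0.063 in the authors' deposited table). Jun had a log2 fold change of -0.35 ± 0.19 (SE; p = 0.0598 in the authors' deposited table). Jund, the steadily expressed JUN protein, was at 0.09 ± 0.15 (SE).

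Maff went the other way. It encodes a small Maf protein without an activation domain, which pairs with CNC factors such as NRF2 and is induced by stress and inflammation. It had 96.1, 126 and 377 normalised counts in P1, P2 and P3, against 125, 57.2 and 70.3 in N1, N2 and N3. P3 alone is far above the rest, and P1 lies below N1, so the sides overlap. The log2 fold change was 1.33 ± 0.49 (SE) as back-calculated and 1.23 when fitted to the whole counts, with p = 0.00713 and adjusted p = 0.356 in the authors' deposited table. Without P3 the fitted log2 fold change was 0.39, and its p in the refit was 0.281. That p also exceeded 0.05 without P2 (0.0641), without N2 (0.211) and without N3 (0.187), where the log2 fold change was 1.49, 1.03 and 1.13. Fosl1, a FOS-related factor, had only 1 to 6 reads per library, or 0.659 to 7.96 normalised counts.

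The EGR zinc-finger factors bind GC-rich sites in the promoters of synaptic genes, and all 4 had negative fold changes, none with p under 0.05. Egr2 had 87.7, 29.4 and 27.4 normalised counts in P1, P2 and P3, against 70.5, 45.0 and 154 in N1, N2 and N3. Its range over the libraries is 5.62-fold, with P2 and P3 lowest and N3 highest, while P1 is above both N1 and N2. The log2 fold change of Egr2 was -0.90 ± 0.54 (SE; p = 0.0955 and adjusted p = 0.837 in the authors' deposited table). Egr4 had 823, 421 and 625 normalised counts in P1, P2 and P3, against 791, 645 and 1126 in N1, N2 and N3, again with P2 lowest, N3 highest and P1 among the negative-side values. Its log2 fold change was -0.46 ± 0.27 (SE; p = 0.0882 and adjusted p = 0.828 in the authors' deposited table). Egr3 was steadier, with P3 at 1129.8 normalised counts and the other 5 libraries between 1562 and 1911. Egr1, the founding member that is needed for lasting potentiation in the dentate gyrus, averaged 3333 normalised counts in the authors' deposited table and had a log2 fold change of -0.36 ± 0.29 (SE).

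The NR4A family of orphan nuclear receptors holds the member with the smallest p. Nr4a3 (NOR1), which regulates metabolic and inflammatory genes and is induced by cAMP and calcium, had 1192, 1199 and 1340.3 normalised counts in P1, P2 and P3, against 1759, 1481 and 2222 in N1, N2 and N3. Every positive-side library lies below every negative-side library, and the means were 1244 ± 83.6 on the positive side and 1821 ± 374 on the negative side (SD over 3 libraries each). The log2 fold change was -0.55 ± 0.18 (SE; 95% interval -0.90 to -0.20), with p = 0.0019 and adjusted p = 0.182 in the authors' deposited table. Nr4a1 (NUR77), the paralog most used as an activity marker in T cells and neurons, had 2037, 947 and 1084 normalised counts in P1, P2 and P3, against 1789, 1410.3 and 2384 in N1, N2 and N3. Here P1 is second only to N3, so the sides overlap (-0.46 ± 0.28, SE; p = 0.105 in the authors' deposited table). Nr4a2 (NURR1), which maintains dopamine neurons, had 1880.0, 845 and 977 normalised counts in P1, P2 and P3, against 833, 1131 and 1309 in N1, N2 and N3. Its fold change was positive only through P1, at 0.18 ± 0.28 on the log2 scale (SE), and is negative when P1 is left out (p = 0.521 and adjusted p = 0.975 with all libraries in the authors' deposited table).

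**Figure D2:**
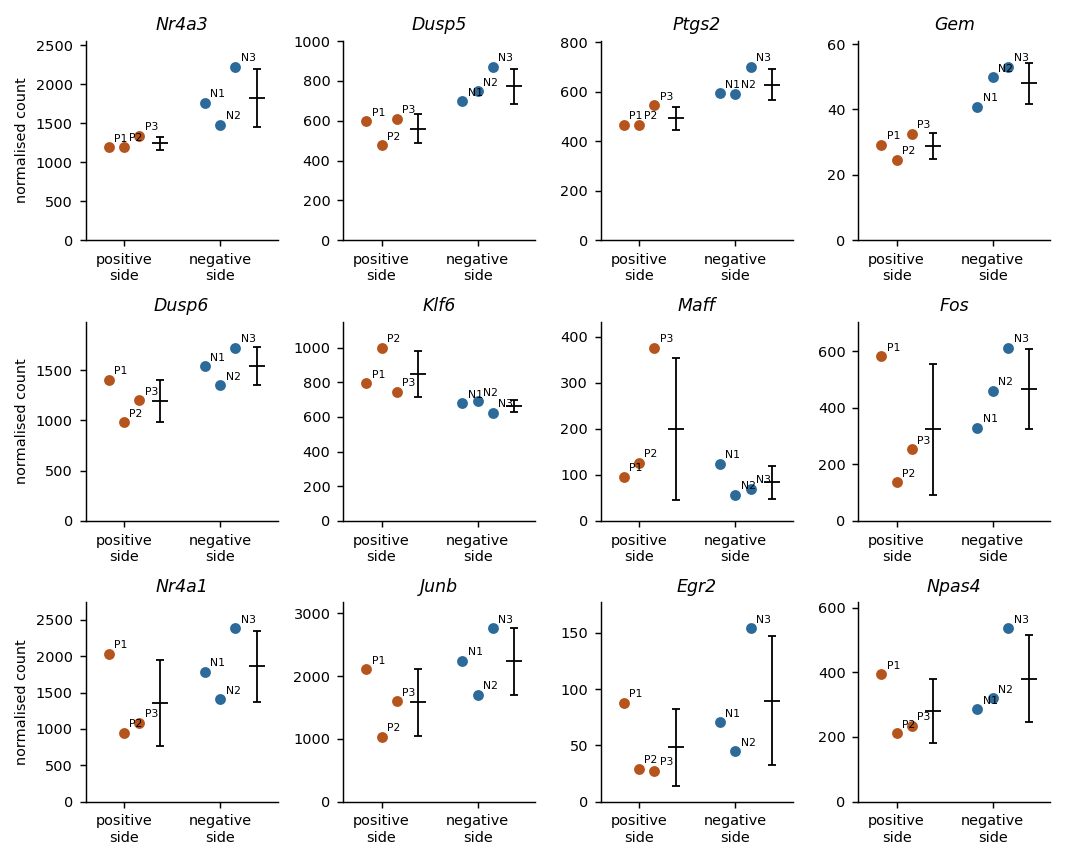
Normalised count (y axis, linear from 0) of 12 members in each library, with the positive side (P1 to P3) left of the negative side (N1 to N3); horizontal marks and bars are the mean and SD of 3 libraries. The sides of Nr4a3, Dusp5, Ptgs2, Gem and Klf6 do not overlap, whereas P1 lies among or above the negative-side libraries in Fos, Nr4a1, Junb, Egr2 and Npas4.

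Of the KLF and other transcription factors, 4 were positive and 3 negative. Klf6, a zinc-finger factor induced by injury in endothelium, glia and regrowing neurons, had 795, 1001 and 746 normalised counts in P1, P2 and P3, against 679, 691 and 625 in N1, N2 and N3. It is the only one of the 33 tested members with whole counts whose positive-side libraries all lie above the negative-side ones, and its log2 fold change was 0.35 ± 0.17 (SE; p = 0.0344 and adjusted p = 0.649 in the authors' deposited table). Klf10, a TGF-beta early response factor, had 663, 487 and 635 normalised counts in P1, P2 and P3, against 696, 684 and 931 in N1, N2 and N3, so that its sides do not overlap in the other direction (-0.37 ± 0.20, SE; p = 0.0563 in the authors' deposited table). Npas4, a neuron-specific factor induced by calcium alone that sets the number of inhibitory synapses, had 394, 212 and 235 normalised counts in P1, P2 and P3, against 287, 319.7 and 536 in N1, N2 and N3. P1 again lies among the negative-side values, and the log2 fold change was -0.44 ± 0.30 (SE; p = 0.142 in the authors' deposited table). Klf2 and Klf4, best known from endothelium, were at 0.01 ± 0.22 and 0.15 ± 0.36, and the growth regulator Myc and the AXIN1-induced factor Csrnp1 at -0.15 ± 0.26 and 0.07 ± 0.19 on the log2 scale (SE).

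Dual-specificity phosphatases remove phosphate from the MAP kinases that induce them. The pair that is specific for ERK had negative fold changes. Dusp5, the nuclear ERK phosphatase, had 597, 476 and 609 normalised counts in P1, P2 and P3, against 698, 749 and 872 in N1, N2 and N3. The sides do not overlap, and the log2 fold change was -0.47 ± 0.17 (SE; 95% interval -0.81 to -0.13), with p = 0.00724 and adjusted p = 0.359 in the authors' deposited table. Dusp6, its cytoplasmic counterpart, had 1404, 982 and 1202 normalised counts in P1, P2 and P3, against 1542, 1349 and 1726 in N1, N2 and N3. P1 lies just above N2, and the log2 fold change was -0.37 ± 0.18 (SE; p = 0.0416 and adjusted p = 0.687 in the authors' deposited table). The phosphatases with a wider range of MAP kinase substrates were positive but close to 0. Dusp1 had 472, 556 and 366 normalised counts in P1, P2 and P3, against 409, 391 and 446 in N1, N2 and N3, and a log2 fold change of 0.17 ± 0.19 (SE; p = 0.373 and adjusted p = 0.961 in the authors' deposited table). Dusp4 had 151, 321 and 113 normalised counts in P1, P2 and P3, against 165, 149.6 and 191 in N1, N2 and N3, so that its fold change of 0.22 ± 0.34 on the log2 scale (SE; p = 0.515 and adjusted p = 0.975 in the authors' deposited table) is positive only through P2. Dusp14 was at 0.04 ± 0.19 (SE).

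Among the immediate early response and feedback genes, Gem, a small GTPase that inhibits voltage-gated calcium channels, had 29.2, 24.6 and 32.5 normalised counts in P1, P2 and P3, against 40.9, 49.9 and 53.1 in N1, N2 and N3. The sides do not overlap, but the counts are low, from 19 to 62 reads per library. The log2 fold change of Gem was the lowest of its role, -0.75 ± 0.37 (SE; p = 0.046 and adjusted p = 0.717 in the authors' deposited table). Ier5, a regulator of heat shock factor, was at -0.27 ± 0.18 on the log2 scale (SE; p = 0.139 in the authors' deposited table). Ier2, Ier3, the salt-inducible kinase Sik1 and the antiproliferative Btg2 lay between -0.07 and 0.14. Ier3 was the steadiest member of all with whole counts, between 168 and 197 normalised counts in the 6 libraries.

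Some of the synaptic and delayed targets act at the synapse itself. Ptgs2 (COX-2), the inducible enzyme of prostaglandin synthesis in pyramidal neurons, had 465, 465 and 544 normalised counts in P1, P2 and P3, against 593, 592 and 700.4 in N1, N2 and N3. The sides do not overlap, and the log2 fold change was -0.36 ± 0.16 (SE; p = 0.0277 and adjusted p = 0.606 in the authors' deposited table). Arc, which drives removal of AMPA receptors and is the classic dendritic activity transcript, had the lowest log2 fold change of the 38 members. That value, -1.14, comes with an SE of 0.60, the second largest after Fos, and p = 0.0593 and adjusted p = 0.753 in the authors' deposited table. Nptx2, a secreted organiser of AMPA receptors, had 628, 704 and 657 normalised counts in P1, P2 and P3, against 749, 600.1 and 872 in N1, N2 and N3. Homer1, whose short activity-induced form uncouples glutamate receptors but cannot be told from the long forms at the level of a gene count, was at -0.18 ± 0.15 (SE). Plk2 and Rheb, a kinase of synaptic scaling and the activator of mTORC1, were at 0.05 ± 0.18 and -0.04 ± 0.18 (SE).

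The members differ widely in level. The mean per kilobase of exon ranged from 1.84 normalised counts for Fosl1 to 2117 for Jund, and Plk2, Jun, Arc and Junb followed Jund. Among members with p under 0.05, Dusp6 had 437 and Nr4a3 256 normalised counts per kilobase, and Maff and Gem only 54.7 and 18.2. These levels use the means of the authors' deposited table and the union of GENCODE exons.

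Read by library rather than by side, the members share a pattern that was noticed only after their values were seen. Of the 33 tested members with whole counts, 18 (54.5%) were highest in N3, beside 16.7% of the 13370 tested genes with whole counts. Likewise 19 members (57.6%) were lowest in P2, beside 28.6% of those genes. Both held at once for 14 members (42.4%), namely Fos, Fosb, Fosl2, Junb, Egr4, Nr4a1, Npas4, Klf10, Dusp5, Dusp6, Gem, Ier2, Ier5 and Ptgs2, beside 8.15% of the genes. No member was highest in N1 or N2. These genes lie almost all under a mean of 1000 normalised counts, as only 39 of the 13370 do not, against 10 of the 33 members. Of the 23 members under that mean, 12 (52.2%) were highest in N3, 13 (56.5%) lowest in P2 and 10 (43.5%) both, beside 16.7%, 28.5% and 8.11% of the 13331 genes under it. The median deviation of the 34 members from their own mean, on the scale of log2(normalised count + 1), was 0.08, -0.36 and -0.15 in P1, P2 and P3, against 0.05, -0.02 and 0.30 in N1, N2 and N3. The value of P1 is nearest to that of N1. The pattern was only partly shared by other lists. Of 20 upstream signalling genes with whole counts, 9 were highest in N3 and 7 lowest in P2. Of 24 other activity-regulated genes with whole counts, again 9 were highest in N3 and 7 lowest in P2. The shares over all 13370 genes are 16.7% and 28.6%, so the P2 counts of both lists lie near the share of all genes. Among 6 microglia markers with whole counts, 5 were highest in N3 and 5 lowest in P2. Of 7 endothelial markers, 3 were highest in N3 and 4 lowest in P2. Of 5 dentate granule markers with whole counts, 2 were highest in N3 and 2 lowest in P2. None of the 9 cortical neuron or 8 meningeal fibroblast markers, all with positive fold changes, was highest in N3. The members share the depth and the RNA of each library, so these counts describe 6 libraries and are not independent.

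**Figure D3:**
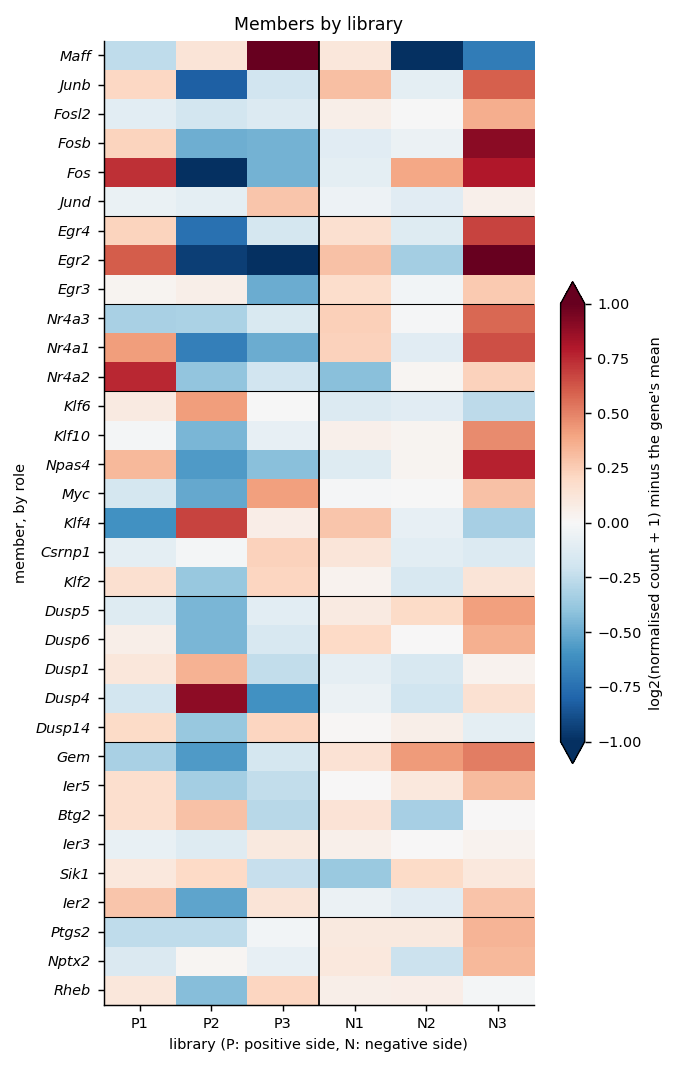
Each of the 33 tested members with whole counts (rows, by role) in each library (columns, P1 to P3 left of N1 to N3); colour is log2(normalised count + 1) minus the gene's mean over the 6 libraries, red above and blue below, with values beyond 1 shown at the end of the scale. The N3 column is mostly red and the P2 column mostly blue, while Maff, Egr3, Klf4, Klf6, Dusp1, Dusp4, Btg2, Sik1 and Nptx2 lie above their own mean in P2.

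**Figure D4:**
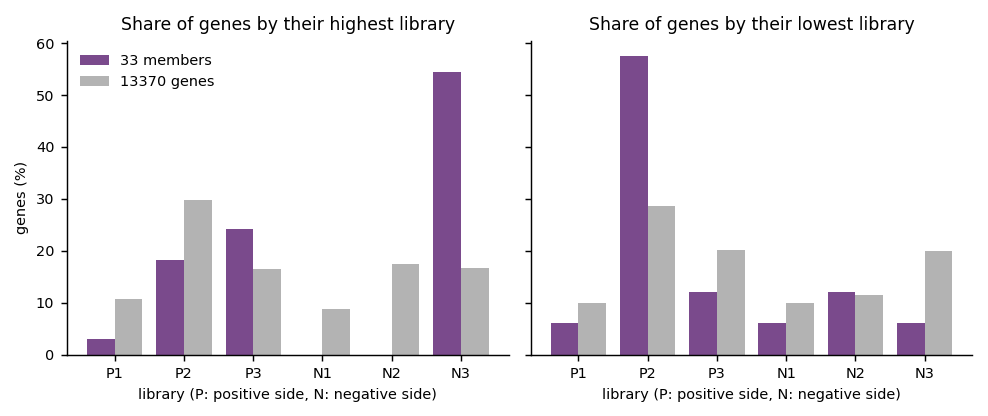
Share of genes (y axis, %) whose highest (left) or lowest (right) library is each of P1 to P3 and N1 to N3, for the 33 members (purple) and for all 13370 tested genes with whole counts (grey). The members exceed the other genes most in N3 as the highest library, 54.5% against 16.7%, and in P2 as the lowest, 57.6% against 28.6%.

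The spread within a side was larger for these genes than for most. The fitted dispersion, the variance between libraries of a side beyond counting error, lay above the trend of all genes at the same mean for 21 of 33 members (63.6%), beside 26.2% of the 13370 genes. It exceeded 2 times the trend for 7 members (21.2%), beside 3.33% of the genes. Under a mean of 1000 the dispersion was above the trend for 12 of 23 members (52.2%), beside 26.1% of the genes. Fos was the most variable, at 10.2 times the trend, which corresponds to a coefficient of variation of 53.6%, followed by Maff at 3.16, Nr4a1 at 2.63 and Nr4a2 at 2.55 times. Dusp5 and Ptgs2, whose sides do not overlap, were below the trend at 0.805 and 0.659 times. Non-overlapping sides were found for 7 of the 33 members, 1 positive (Klf6) and 6 negative (Nr4a3, Dusp5, Ptgs2, Gem, Fosl2 and Klf10), beside 13.1% of the 13370 genes, 6.57% positive and 6.56% negative.

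Values were refitted with each library left out. With P1 left out, Fos had a log2 fold change of -1.27 and Nr4a1 of -0.87, and both passed an adjusted p of 0.05 over the 13370 genes in the refit (adjusted p = 0.0218 and 0.0326), a threshold that 0.643% of those genes passed. In that refit 14 members had p under 0.05, beside 10.6% of the genes. With P2 left out, or with N3 left out, only 1 member had p under 0.05, and that was Nr4a3 in both cases, beside 4.09% and 3.87% of the genes. The number was 4 without P3 (beside 8.92%), 7 without N1 (beside 8.12%) and 10 without N2 (beside 6.45%). No member passed the adjusted threshold without P2, P3, N1 or N3, where 0.135%, 0.785%, 0.74% and 0.0374% of the genes did. Nr4a3 was the only member with p under 0.05 whichever library was left out, with p between 0.000129 and 0.0225 in the refit and a log2 fold change between -0.68 and -0.38. Without N2 it passed the adjusted threshold (adjusted p = 0.0332), as 0.516% of the genes did. Dusp5 had p over 0.05 without P2 (0.0537) or N3 (0.0521), and Ptgs2 without P1 (0.0975), P2 (0.0964) or N3 (0.127). Klf6 had p over 0.05 without P2, N1, N2 or N3, with p of 0.0539 to 0.202, and Dusp6 without P2, P3, N1 or N3, with p of 0.0811 to 0.193. Gem had p under 0.05 only without N1 (0.0464), with a log2 fold change of -0.85 to -0.64 over these refits, against -0.74 with all 6 libraries. Of the members near 0, 11 changed sign in at least 1 of these refits.

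Markers of other cell types also differed between these libraries. For the counts below, 0.328% of all tested genes have an adjusted p under 0.05 in the authors' deposited table. An unadjusted p under 0.05 is found there for 6.81%. All 8 microglia markers had negative fold changes, 5 with p under 0.05 and Fcrls with adjusted p = 0.00112 in the authors' deposited table. The summed level of the 6 microglia markers with whole counts was 3348 to 4436 normalised counts on the positive side, lowest in P2, against 4986 to 6532 on the negative side, highest in N3. All 8 oligodendrocyte markers were negative as well, 3 with p under 0.05, and Ermn with adjusted p = 0.00282 in the authors' deposited table. The 8 meningeal fibroblast markers were all positive, 4 with an adjusted p under 0.05 in the authors' deposited table, and their summed level was 1535 to 3376 normalised counts on the positive side, highest in P2, against 911 to 1163 on the negative side, lowest in N3. All 9 markers of cortical neurons were positive, 2 with an adjusted p under 0.05 in the authors' deposited table. Their summed level was 5411 to 7153 normalised counts in P1 to P3, against 4293 to 5247 in N1 to N3. The 6 choroid plexus markers were positive too, none with p under 0.05, and the 2 with whole counts summed to 66.8 to 1031 normalised counts in P1 to P3, highest in P2, against 45.1 to 207 in N1 to N3. Of 7 endothelial markers 1 and of 7 astrocyte markers 2 had p under 0.05, all 3 negative. By sign, however, 4 markers of each of these 2 lists were positive and 3 negative. The median log2 fold change was 0.10 for the endothelial and 0.01 for the astrocyte list. No marker in these lists was at 0. The part of these markers in the members' values was not tested, and in bulk tissue fewer cells of a type and less RNA per cell cannot be told apart.

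Markers of the labelled tissue were looked for. All 7 pan-neuronal markers, 7 dentate granule neuron markers and 7 CA1 and CA3 pyramidal neuron markers were tested, and none was at 0. In the authors' deposited table the pan-neuronal ones averaged 6095 to 59984 normalised counts, the dentate granule ones 116 to 3344 and the pyramidal ones 90.9 to 4065. Cortical neuron markers averaged 57.9 to 1389 and choroid plexus markers 105 to 33085, so presence alone does not delimit the dissected tissue. The summed level of the 5 dentate granule markers with whole counts was 5036 to 5798 normalised counts in P1 to P3, against 5636 to 6684 in N1 to N3. For the 4 pyramidal markers with whole counts it was 3696 to 3752 in P1 to P3, against 4096 to 4770.3 in N1 to N3. These sums leave out markers without whole counts. Among the pyramidal ones these are Bok, Fibcd1 and Wfs1, at -0.41 ± 0.18, 0.13 ± 0.21 and 0.30 ± 0.21 on the log2 scale (SE). By sign, 2 of the 7 pyramidal markers were positive and 5 negative, and 3 of the 7 dentate granule markers were positive and 4 negative.

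The genes upstream of the programme had a median log2 fold change of -0.04, beside -0.22 for its members and 0.00 over all tested genes. Of 33 genes of CREB, SRF, MEF2, calcium and ERK signalling, none has an adjusted p under 0.05 in the authors' deposited table. Among all tested genes 0.328% do. Only 1 gene of the list has an unadjusted p under 0.05 there, beside 6.81% of all tested genes. That gene is Mef2c, an activity-dependent factor that restrains excitatory synapse number, with a log2 fold change of 0.73 ± 0.23 (SE; p = 0.00153 and adjusted p = 0.165 in the authors' deposited table). Its library values could not be resolved. By sign, 11 genes of this list (33.3%) were positive and 22 negative, while 50.5% of all tested genes were positive. Elk3, a ternary complex partner of SRF, had 159.6, 167 and 154 normalised counts in P1, P2 and P3, against 196, 194 and 241 in N1, N2 and N3, at -0.39 ± 0.20 on the log2 scale (SE; p = 0.0573 in the authors' deposited table). The ERK-activated kinases Rps6ka1 and Rps6ka2 were at -0.27 ± 0.17 and 0.27 ± 0.17 on the log2 scale (SE).

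Of 30 other genes known to respond to activity, none has an adjusted p under 0.05 in the authors' deposited table, beside 0.328% of all tested genes. An unadjusted p under 0.05 was found there for 2 positive and 3 negative ones. Among all tested genes 3.92% were positive and 2.89% negative at that p. Gadd45g, which takes part in DNA demethylation, had 582, 569 and 592 normalised counts in P1, P2 and P3, against 658, 764 and 734 in N1, N2 and N3, and its sides do not overlap (-0.31 ± 0.15, SE; p = 0.0345 in the authors' deposited table). Bdnf, the neurotrophin of activity-dependent plasticity, had 992, 853 and 1069.9 normalised counts in P1, P2 and P3, against 1335, 1051 and 1319 in N1, N2 and N3 (-0.35 ± 0.17, SE; p = 0.0356 in the authors' deposited table). P3 lies above N2, so that the sides of Bdnf overlap. Per1, a clock gene with CRE sites, was at 0.29 ± 0.14 and Pcsk1, the prohormone convertase, at 0.48 ± 0.24 on the log2 scale (SE). The median of this list was -0.03, with 13 positive (43.3%) and 17 negative, beside 50.5% positive among all tested genes. Its median deviation by library was -0.01, -0.07 and -0.05 in P1, P2 and P3, against -0.04, -0.02 and 0.13 in N1, N2 and N3.

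The promoters of the members were searched for the DNA elements known from this programme. RefSeq start sites of build GRCm38.p6 were available for 28 members, with 38 start sites in all. None was available for Fosl1, Egr1, Egr3, Arc, Dusp4, Ier2, Klf10, Myc, Sik1, Gem and Nptx2. The 250 bases before each start were searched on both strands, and each window ends at the base before the annotated transcription start. Elements further upstream are not covered. The full cAMP response element (CRE) TGACGTCA was found in 4 of 38 member promoters (10.5%) and in 1.55% of all 32851 promoters in the table. Its half-site TGACG, which every full CRE also contains, was found in 25 of 38 (65.8%) and in 17.8% of all. The EGR site GCGNGGGCG was in 8 of 38 (21.1%) and in 4.7% of all, and the CArG box of serum response factor in 5 of 38 (13.2%) and 1.47% of all, 4 of the 5 at starts of Egr2. The AP-1 site TGANTCA was in 1 of 38 (2.63%) and in 6.75% of all. A match is a description of letters and not a site in use. The 4 members with a full CRE, Btg2, Dusp1, Maff and Plk2, all had positive fold changes, most of them close to 0. Btg2, Dusp1 and Plk2 were at 0.14 ± 0.21, 0.17 ± 0.19 and 0.05 ± 0.18 on the log2 scale (SE), less than their SE from 0. The fitted value of Maff fell from 1.23 to 0.39 without P3. A link between element and direction was not tested. Nr4a2, also positive, holds 4 half-sites. No element was found for Dusp6, Ier3, Ier5, Jun and Ptgs2, which were negative, or for Dusp14, Jund and Klf6, which were positive. The following 6 promoters were picked by hand and do not show how the elements divide by direction. They belong to 5 members with lower values in P2 than in N3 and, last, to Klf6, which goes the other way. Capitals mark CRE half-sites, EGR sites and CArG boxes.
Nr4a3 (chr4:48045055-48045304, plus strand): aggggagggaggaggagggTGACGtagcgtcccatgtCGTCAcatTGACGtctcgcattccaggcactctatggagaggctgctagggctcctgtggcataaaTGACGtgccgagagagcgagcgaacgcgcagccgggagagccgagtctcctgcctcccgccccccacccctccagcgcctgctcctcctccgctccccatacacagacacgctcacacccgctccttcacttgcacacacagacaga
Nr4a1 (chr15:101266596-101266845, plus strand): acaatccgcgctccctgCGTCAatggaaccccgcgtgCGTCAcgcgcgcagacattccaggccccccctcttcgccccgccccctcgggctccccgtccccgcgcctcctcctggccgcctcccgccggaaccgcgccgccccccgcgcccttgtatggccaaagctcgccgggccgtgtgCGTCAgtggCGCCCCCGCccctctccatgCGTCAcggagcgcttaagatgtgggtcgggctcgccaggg
Fos (chr12:85473640-85473889, plus strand): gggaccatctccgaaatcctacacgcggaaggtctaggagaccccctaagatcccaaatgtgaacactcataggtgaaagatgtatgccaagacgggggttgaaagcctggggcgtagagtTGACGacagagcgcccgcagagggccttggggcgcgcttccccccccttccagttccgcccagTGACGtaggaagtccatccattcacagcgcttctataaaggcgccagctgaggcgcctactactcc
Npas4 (chr19:4989972-4990221, minus strand): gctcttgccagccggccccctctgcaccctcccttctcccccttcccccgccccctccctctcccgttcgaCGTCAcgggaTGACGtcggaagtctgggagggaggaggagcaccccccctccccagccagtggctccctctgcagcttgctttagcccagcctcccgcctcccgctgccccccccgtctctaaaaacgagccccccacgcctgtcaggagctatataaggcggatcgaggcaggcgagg
Dusp5 (chr19:53528895-53529144, plus strand): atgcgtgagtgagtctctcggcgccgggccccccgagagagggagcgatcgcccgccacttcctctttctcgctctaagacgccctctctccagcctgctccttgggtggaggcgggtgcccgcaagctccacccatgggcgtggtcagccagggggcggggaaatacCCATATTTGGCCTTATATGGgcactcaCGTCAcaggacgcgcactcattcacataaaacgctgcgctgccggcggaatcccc
Klf6 (chr13:5861239-5861488, plus strand): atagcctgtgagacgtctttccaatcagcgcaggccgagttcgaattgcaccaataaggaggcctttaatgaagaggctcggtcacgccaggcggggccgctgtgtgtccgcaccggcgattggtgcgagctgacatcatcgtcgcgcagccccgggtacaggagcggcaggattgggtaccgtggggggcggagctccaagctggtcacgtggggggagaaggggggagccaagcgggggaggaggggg

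Nr4a3 and Nr4a1 each hold 4 CRE half-sites, Fos and Npas4 hold 2 each, and Nr4a1 also has an EGR site. Dusp5 has 1 half-site and 2 CArG boxes side by side. Klf6 has none of these letters in its window.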

How the data were processed

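RNA of 6 mouse hippocampus samples (3 Visudyne, 3 Saline) was sequenced as stranded mRNA libraries with paired reads of 150 bases, per the labels. Per the labels' protocols, fastp 0.20.0 removed adapters and poor bases, HISAT2 2.1.0 did the alignment, and gene counts came from featureCounts 2.0.1. Per the submitters' processing notes, the groups were compared with DESeq2 1.28.0. Genome build, annotation and strand setting: not given in the sources used here. Reads of overlapping or antisense genes may therefore not be separated. The deposited table gives, for each gene, a mean normalised count over all libraries (a signal that is never negative), a log2 fold change with its error, both drawn toward 0, a p-value and an adjusted p-value. All of these are the authors' own values. The table holds no column per sample, so the edgeR test that would apply to counts was not run and the authors' p-values were used.

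Unshrunken log2 fold changes and SEs were back-calculated from the deposited p-value and error, with a Cauchy prior of scale 0.0356. Whole counts were sought as the sets of 6 integers, each times a fixed step, that sum to the 15-digit deposited mean and give the deposited p-value and error. A set was accepted when it was the only solution and at most 0.05 solutions were expected by chance, which held for 13331 of 13504 tested genes with a mean under 1000 (98.7%). Summed over the 34 accepted members, 0.143 chance solutions were expected. For 32 of them the fold changes fitted to these counts and back-calculated lie within 0.02 of each other, and Maff differs most, by 0.0956. The search and the back-calculation were tested on simulated data with known counts. The search returned the exact counts for 400 of 400 genes there. The back-calculated fold changes lay within a tolerance of 0.02 for 371 of the 400. The search was not tested separately for the 10 of 33 tested members with a mean of 1000 or more. The recovered counts cover 13373 genes with 1952287 to 5120814 reads per library, which is part of the library and not its depth. A negative binomial model that kept the fitted dispersion trend and prior was refitted to them for the library-omission and scaling values, with Benjamini-Hochberg adjustment over 13370 genes. The median difference between its z values and the deposited ones, without sign, was 2.17e-05.

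The members and the gene lists were chosen with earlier results of these data known. Full statistics are given for members with an unadjusted p under 0.05, for the member of each role with the smallest p, and for the 5 highest and 5 lowest fold changes. From each gene list up to 4 genes with the smallest p are named. Members named beyond this rule, and the pattern over libraries, were picked after their values were seen. Levels per kilobase use the exon union of GENCODE release M21, and promoter sequences are from RefSeq. Python 3.11.15, numpy 2.4.6, scipy 1.17.1, pandas 2.3.3, numba 0.67.0 and matplotlib 3.10.9 were used.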

Additional observations from a re-analysis of the deposited data

How the results depend on the processing

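No member passed the adjusted threshold under any alternative that kept all 6 libraries: a threshold of 0.1, adjustment over every gene with a p-value or over genes above a low-value filter, z divided by its SD, whole counts only, or scaling to library totals. The number with an unadjusted p under 0.05 was 7 and became 4 when z was divided by its SD over all tested genes (1.09). The same division took the other activity-regulated genes with such a p to 0, against 5. The median log2 fold change of the members was -0.22, beside -0.0019 for the authors' shrunken values, -0.55 with a prior scale 2 times smaller in the back-calculation and -0.03 with one 2 times larger. The alternatives with whole counts, with scaling to library totals, with libraries left out with the peak in place of the curvature or with means under 1000 only were chosen after seeing the data. With 1 of the 6 libraries left out in turn, 0 to 2 members passed the adjusted threshold, 1 to 14 had an unadjusted p under 0.05, 8 to 12 of the 33 members with whole counts had a positive fold change (12 with all libraries), and their median was -0.29 to -0.07 (-0.16 with all libraries). The lowest count of positive fold changes, 8, came without P3, where 4 members had an unadjusted p under 0.05. The cause of these changes was not tested. Scaling to library totals moved the median over genes by 0.0042 on the log2 scale and turned no member's sign. No paired analysis was possible because the labels give no replicate numbers shared between the groups and the table has no columns of samples. Depth limits Fosl1 and Gem most, and members with no whole counts have no values per library.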
